A study of Homo sapiens with 8 samples.

Results

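HSPA5, HERPUD1, XBP1 and DNAJB9 are 4 genes of the endoplasmic reticulum stress response. They were followed through lists of ATF4 peaks from chromatin immunoprecipitation and sequencing, by taking every peak with a base within 5 kb of the genes' start sites in the hg19 build (HSPA5 at chr9:128003666, HERPUD1 at chr16:56965748, XBP1 at chr22:29196560 and DNAJB9 at chr7:108210189). The 8 lists held 7, 7, 9, 9, 6, 7, 10 and 8 such peaks, in lists of 9575 to 88302 peaks. Merged where they overlapped, they formed 11 regions out of 132657 in all. Each of the 4 genes had a peak in all 8 lists. For HSPA5 this held only when its start site (7 lists) and a region 2.1 kb upstream (6 lists) were counted together. The share of all genes with a peak in every list was not computed, since an hg19 annotation was not used.

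The libraries came from Nalm6 and SUPB15, established cell lines of acute lymphoblastic leukaemia. Cells of each line were either untreated or given L-asparaginase, a leukaemia drug that breaks down asparagine, at 1 IU/ml for 2 h, and 5 ug of an antibody against ATF4 was used in every library. Each of the 4 groups had 2 libraries, and each library has its own peak list. The design text describes independent experiments for Nalm6, more per condition than the 2 libraries analysed here, without saying which library came from which, and does not mention SUPB15. The p-values for both lines therefore measure the spread between libraries. That spread may be technical in SUPB15, and in Nalm6 it is not tied to particular experiments. No genotype, transgene or further treatment is named for any group, and each line is a single cell line.

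ATF4 is a basic leucine zipper factor whose translation rises when amino acids run short or when the kinase PERK senses unfolded protein in the endoplasmic reticulum. The same organelle has further sensors, ATF6 and IRE1, and IRE1 splices the messenger RNA of XBP1 into the form that encodes an active factor. HSPA5 is the main Hsp70 chaperone of the endoplasmic reticulum, DNAJB9 is a co-chaperone of the DnaJ family there, and HERPUD1 is a membrane protein of the pathway that returns misfolded proteins to the proteasome.

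The promoters of the genes are shown because every gene carried an ATF4 peak at its start site in at least 5 of the lists, and because the promoters differ in the elements they hold. The sequences are the 250 bases before the RefSeq start (GRCh38.p14), 5′ to 3′ in the direction of transcription. They lie at chr9:125241344-125241593 on the minus strand for HSPA5, chr16:56931892-56932141 on the plus strand for HERPUD1, chr22:28800570-28800819 on the minus strand for XBP1 and chr7:108569624-108569873 on the plus strand for DNAJB9. These positions are not in the build of the peaks and were not converted, and the RefSeq start can differ from the start site used for the peaks. Capitals mark matches to the elements named next, with free positions of an element in lower case.
HSPA5: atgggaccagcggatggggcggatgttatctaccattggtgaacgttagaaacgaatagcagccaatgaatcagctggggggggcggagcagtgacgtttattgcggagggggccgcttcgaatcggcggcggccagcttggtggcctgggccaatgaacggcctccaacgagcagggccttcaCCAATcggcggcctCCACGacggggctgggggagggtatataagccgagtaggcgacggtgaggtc
HERPUD1: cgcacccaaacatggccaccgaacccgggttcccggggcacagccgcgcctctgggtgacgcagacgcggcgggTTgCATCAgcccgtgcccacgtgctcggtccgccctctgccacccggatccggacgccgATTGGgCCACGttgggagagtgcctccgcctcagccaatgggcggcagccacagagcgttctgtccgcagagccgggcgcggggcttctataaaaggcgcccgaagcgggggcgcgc
XBP1: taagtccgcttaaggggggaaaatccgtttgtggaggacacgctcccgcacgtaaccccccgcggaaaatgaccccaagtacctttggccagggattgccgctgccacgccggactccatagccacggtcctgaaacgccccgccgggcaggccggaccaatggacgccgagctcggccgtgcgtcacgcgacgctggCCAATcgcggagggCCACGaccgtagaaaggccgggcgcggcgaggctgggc
DNAJB9: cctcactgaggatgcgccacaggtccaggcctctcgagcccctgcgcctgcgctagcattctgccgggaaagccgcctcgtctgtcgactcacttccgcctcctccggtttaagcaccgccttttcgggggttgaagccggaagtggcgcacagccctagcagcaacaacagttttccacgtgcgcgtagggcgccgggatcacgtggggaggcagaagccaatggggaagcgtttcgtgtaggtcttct

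Both strands were searched. The endoplasmic reticulum stress element, the boxes CCAAT and CCACG with 9 bases between them, to which ATF6 binds with NF-Y, was found in HSPA5 and in XBP1, against 0.0806% of 27305 promoters of the same length. The second form of that element, ATTGG and CCACG with 1 base between them, was found in HERPUD1 and in 0.0513% of promoters. HERPUD1 alone among the 4 matched the loose form of the composite element of ATF4 and C/EBP factors, TGATGNAAN, on the minus strand 169 to 177 bases before the start. This loose form was present in 3.18% of promoters. The strict form TGATGCAAT is contained in the loose form and was in 0.245% of promoters. Neither it nor the cyclic AMP response element TGACGTCA (1.77% of promoters) nor the core TGACGTG of the unfolded protein response element (1.71%) occurred in these 4 windows. DNAJB9 matched none of the searched elements. A match is a description of letters, and its absence says nothing of whether a factor binds.

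The lists differ in length, and SUPB15 asparaginase replicate 1 stands apart with 88302 peaks against 41213 in its replicate. The XBP1 start site and the region 2.7 kb upstream of XBP1 were listed in SUPB15 by that library only. Depth is not given in the lists. It was read as a genome background, the number of fragments expected per position of a peak-free genome, of 2.21 to 2.97 in Nalm6 and 3.90 to 4.19 in SUPB15. The strength of a peak is given in the following as its summit pileup, the number of fragments over the summit, divided by the genome background of its library. With asparaginase this value was higher at most listed regions. Its median ratio was 1.29 in Nalm6 (25213 regions listed in all 4 libraries) and 1.54 in SUPB15 (4765 regions). Changes are therefore given relative to the median region of the line, as log2 values with a standard error, and the uncentred ratio is added. Only regions listed in all libraries of a line could be tested, which leaves out those too weak for a list without the drug. The deposited −log10 p also depends on depth, so its differences between libraries do not measure a change of strength alone. The genome background was 2.97 and 2.79 in untreated Nalm6 and 2.21 and 2.33 in Nalm6 with asparaginase.

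**Figure D1:**
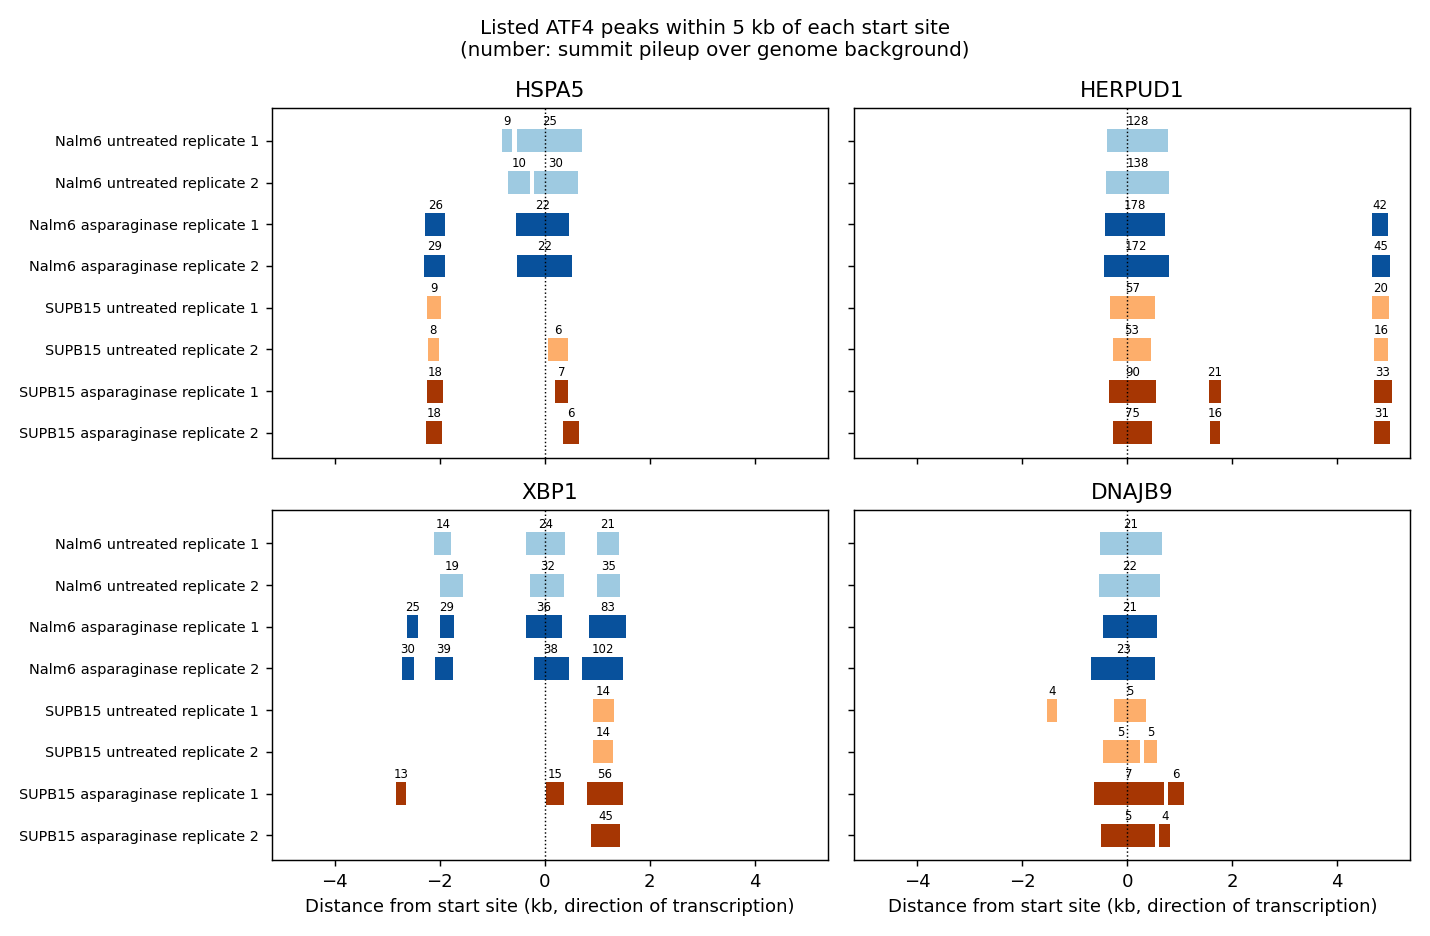
Listed ATF4 peaks of each library (rows) within 5 kb of the start sites of HSPA5, HERPUD1, XBP1 and DNAJB9; the horizontal axis is the distance in kb in the direction of transcription, bars are the listed peaks, and the numbers above them are summit pileups over genome background. Peaks at the start sites of HERPUD1 and DNAJB9 are present in all 8 rows, as is the XBP1 peak 1.2 kb downstream of the start, while the peaks 2.1 kb upstream of HSPA5 and 4.8 kb downstream of HERPUD1 are absent from both untreated Nalm6 rows.

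HERPUD1 had the strongest peak of the 4 genes in every library, at its start site (chr16:56965314-56966538 over the 8 lists, summits 118 to 152 bp downstream of the start). In Nalm6 its pileup over genome background was 128 and 138 without the drug and 178 and 172 with it. In SUPB15 the values were 57.1 and 53.3 without the drug and 90.0 and 75.4 with it. In both lines the asparaginase libraries were above the untreated ones without overlap, and Nalm6 was above SUPB15 under either condition. Each line has its own libraries, and the untreated lists were longer in Nalm6 (34825 and 36801 peaks) than in SUPB15 (9575 and 9586). Differences in level between the lines, here and below, therefore cannot be told apart from differences between the sets of libraries. Ranked by −log10 p, the peak was number 9 of 34825 and 21 of 36801 for Nalm6 without the drug, number 101 of 43376 and 200 of 48984 for Nalm6 with it, number 49 of 9575 and 30 of 9586 for SUPB15 without it, and number 79 of 88302 and 99 of 41213 for SUPB15 with it. It thus stood in the first 0.512% of every list by this measure, and ranks in lists of different length do not measure a change.

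The deposited values of that peak were also high. In Nalm6 the fold enrichment over local background was 12.1 and 11.3 without the drug and 10.5 and 9.46 with it, numbers 495, 889, 2974 and 4565 of the lists. In SUPB15 it was 11.05 and 12.4 without the drug and 11.2 and 12.8 with it, numbers 261, 108, 1249 and 621. In the same order of libraries the −log10 p was 267, 259, 254 and 241 for Nalm6 (−log10 q 260, 252, 248 and 236) and 158, 152, 253 and 217 for SUPB15 (−log10 q 152, 146, 247 and 211). The fold enrichment therefore did not follow the pileup. The local background by which it is divided was 10.3 and 11.9 times the genome background without the drug and 16.6 and 17.8 times with it in Nalm6, and went from 4.94 and 4.05 to 7.83 and 5.65 times in SUPB15.

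Relative to the median region, the HERPUD1 start site did not pass the test in either line. The log2 change was 0.033 ± 0.16 (SE) in Nalm6 (limma, Benjamini-Hochberg adjusted p = 0.897) and -0.044 ± 0.15 in SUPB15 (limma, adjusted p = 0.825), and the 95% intervals were -0.28 to 0.35 and -0.35 to 0.26. Uncentred, the pileup over genome background was 1.32 and 1.49 times as high with asparaginase. Both differences then passed (limma, adjusted p = 0.0335 in Nalm6 and 0.000608 in SUPB15). In Nalm6 the summits held 380 and 384 fragments without the drug and 394 and 400 with it. The genome background that divides them went from 2.97 and 2.79 to 2.21 and 2.33, which made up most of the Nalm6 rise. The rise of the scaled value was thus larger than the spread between libraries, and a difference from the rise of the median region was not detected. With the deposited fold enrichment as the value, the change relative to the median region was downward in both lines. Its log2 value was -0.37 in Nalm6 (limma, adjusted p = 0.0414) and -0.40 in SUPB15 (limma, adjusted p = 0.0464). In SUPB15 the deposited values themselves did not fall and overlapped, at 11.05 and 12.4 without the drug and 11.2 and 12.8 with it. The centred pileup change in SUPB15 was also downward, and passed, in 2 settings where the median region is another one. These were peaks with −log10 q of at least 10 (-0.52, limma adjusted p = 0.00290) and summits within 200 bp (-0.38, limma adjusted p = 0.0477).

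A second HERPUD1 region lay 4.8 kb downstream of the start, near the edge of the 5 kb window (chr16:56970416-56970791). Nalm6 listed it only with the drug, at 41.7 and 45.5 times the genome background. SUPB15 listed it in every library, at 20.1 and 16.2 without the drug and 32.9 and 31.1 with it. Next to the start-site peak of the same library, the downstream pileup was 0.234 and 0.265 times as high in the 2 Nalm6 libraries, and 0.352, 0.303, 0.366 and 0.412 times as high in the SUPB15 libraries. The downstream region thus stood higher beside the start site in every SUPB15 library than in the Nalm6 libraries that listed it. In SUPB15 its log2 change was 0.20 ± 0.33 relative to the median region (limma, adjusted p = 0.630), with a 95% interval of -0.45 to 0.85, and 1.76-fold uncentred (limma, adjusted p = 0.0296).

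Absence from a list is not a level of 0. With the local background of the nearest listed peak of the same library, a HERPUD1 summit in untreated Nalm6 would have needed 51 and 55 fragments, or 17.2 and 19.7 times the genome background, to reach the weakest listed −log10 p. Other requirements of the peak caller are not in the lists, so this figure is not an upper bound. A further HERPUD1 region, 1.7 kb downstream (chr16:56967305-56967531), was listed only in the 2 SUPB15 asparaginase libraries, at 21.5 and 16.3 times the genome background. The corresponding need was 9.80 and 8.46 in untreated SUPB15 and 17.2 to 27.5 in the 4 Nalm6 libraries, which is near or above the level that SUPB15 reached.

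XBP1 had the clearest change. A region 1.2 kb downstream of its start (chr22:29195010-29195850, summits 1141 to 1203 bp downstream) was listed in all 8 libraries. Exon or intron is not assigned to any region here, since an hg19 annotation was not used. In Nalm6 the pileup over genome background was 20.9 and 35.1 without the drug and 83.3 and 101.7 with it. In SUPB15 it was 14.2 and 14.1 without the drug and 55.8 and 45.1 with it. The groups did not overlap in either line, and untreated SUPB15 was below untreated Nalm6.

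In Nalm6 the region rose 2.62-fold relative to the median region (log2 change 1.39 ± 0.17 SE, limma, adjusted p = 8.58e-13) and 3.37-fold uncentred. In SUPB15 it rose 2.28-fold (log2 change 1.19 ± 0.32, limma, adjusted p = 0.00469) and 3.50-fold uncentred. A larger change was found at 5.43% of the tested regions in Nalm6 and at 4.62% in SUPB15. The Nalm6 call held under every alternative that tested the region. In SUPB15 the call was lost with the deposited fold enrichment (limma, adjusted p = 0.0700), with only peaks of −log10 q of at least 10 (0.0723), without untreated replicate 1 (0.111) and without untreated replicate 2 (0.574), and without either asparaginase library it was kept (0.0431 and 0.0204).

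The deposited values of this XBP1 region were higher with the drug in both lines. The order of the lines was not that of the pileup, since the fold enrichment of SUPB15 was above that of Nalm6 under either condition and the untreated −log10 p values of the lines overlapped. The fold enrichment went from 2.85 and 3.76 to 6.17 and 6.52 in Nalm6 and from 4.86 and 5.46 to 9.07 and 10.6 in SUPB15. The −log10 p, untreated libraries first, was 12.8, 27.9, 82.7 and 110 for Nalm6 (−log10 q 9.99, 24.5, 78.8 and 106) and 23.1, 24.7, 139 and 118 for SUPB15 (−log10 q 19.1, 20.4, 135 and 113). By −log10 p it was number 15268, 6169, 1749 and 1478 of the Nalm6 lists and number 1469, 1004, 620 and 466 of the SUPB15 lists. By fold enrichment the numbers were 33372, 26593, 13824 and 13548 for Nalm6 and 2269, 1363, 2296 and 1136 for SUPB15, so that the Nalm6 peak stood far lower by enrichment than by p. Its local background was 7.12 and 9.07 times the genome background without the drug and 13.1 and 15.2 times with it in Nalm6, and went from 2.73 and 2.37 to 5.94 and 4.03 times in SUPB15.

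At the start site of XBP1 (chr22:29196105-29196920, summits from 38 bp upstream to 147 bp downstream) the Nalm6 pileup over genome background was 23.9 and 31.9 without the drug and 35.8 and 37.8 with it, without overlap. The Nalm6 summits held 71 and 89 fragments without the drug and 79 and 88 with it, which overlapped. The separation of the scaled values therefore came from the lower genome background of the asparaginase libraries. In SUPB15 only asparaginase replicate 1 listed the XBP1 start site, at 15.3, where the other 3 libraries would have needed 6.62, 5.90 and 7.89. In Nalm6 its log2 change was 0.046 ± 0.18 relative to the median region (limma, adjusted p = 0.876), with a 95% interval of -0.32 to 0.41. By deposited fold enrichment, also relative to the median region, it was -0.53 (limma, adjusted p = 0.0125). Fold enrichments were 3.26 and 3.43 without the drug and 2.66 and 2.45 with it, beside list medians of 4.46 to 5.07 in Nalm6. They are divided by a local background of 7.10 and 9.06 times the genome background without the drug and 13.2 and 15.1 times with it. These values are nearly those of the region 1.2 kb downstream, so the start site shares its divisor with the region that rose.

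Within a library the ratio of the downstream to the start-site pileup needs no scaling between libraries. In Nalm6 this ratio was 0.873 and 1.10 without the drug and 2.33 and 2.69 with it, and it was 3.66 in the SUPB15 library that listed both. The XBP1 summits of Nalm6 thus were of similar height without the drug, and the downstream one was the higher with it. The Nalm6 ratio was 2.55 times as high with the drug, and a two-sided exact permutation test gave p = 0.333, below which a design of 2 and 2 libraries cannot go.

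Upstream of XBP1 were further regions. The region 1.9 kb upstream (chr22:29198111-29198664) was listed in all 4 Nalm6 libraries and in no SUPB15 library, where 5.90 to 10.3 times the genome background would have been needed. In Nalm6 the pileup was 14.1 and 19.0 times the genome background without the drug and 29.4 and 39.5 times with it, a rise of 1.60-fold relative to the median region (log2 change 0.68 ± 0.20, limma, adjusted p = 0.00310) and 2.06-fold uncentred. That call was lost with the deposited fold enrichment (limma, adjusted p = 0.666), without untreated replicate 1 (0.0768) and without asparaginase replicate 2 (0.189). The fold enrichments were low, 2.06, 2.14, 2.26 and 2.66, over a local background of 6.69 to 14.6 times the genome background.

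The region 2.7 kb upstream of XBP1 (chr22:29198969-29199403) was listed in both Nalm6 asparaginase libraries, at 25.4 and 30.03 times the genome background, and in SUPB15 asparaginase replicate 1, at 13.4. No untreated list held it, with needs of 12.5 and 15.4 in Nalm6 and of 6.62 and 5.90 in SUPB15. Fold enrichments of 1.97, 2.06 and 2.16 put it among the weakest peaks of its lists, numbers 43367, 48927 and 88059. Beyond the window, a further region lay 8.1 to 8.2 kb downstream of the XBP1 start in all 4 Nalm6 lists. In RefSeq (GRCh38.p14) XBP1 is 6010 bp long and CCDC117 lies 5259 bp beyond its end, so this region was not assigned to a gene. Its pileup was 14.8 and 15.8 times the genome background without and 27.6 and 31.3 with asparaginase. In SUPB15 only asparaginase replicate 1 listed peaks there, with summits 7628, 9321 and 9854 bp downstream at 6.68, 6.20 and 7.40 times the genome background, and the first of them overlapped the Nalm6 region. Just inside the window, the HERPUD1 region at 4.8 kb had the values given above.

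**Figure D2:**
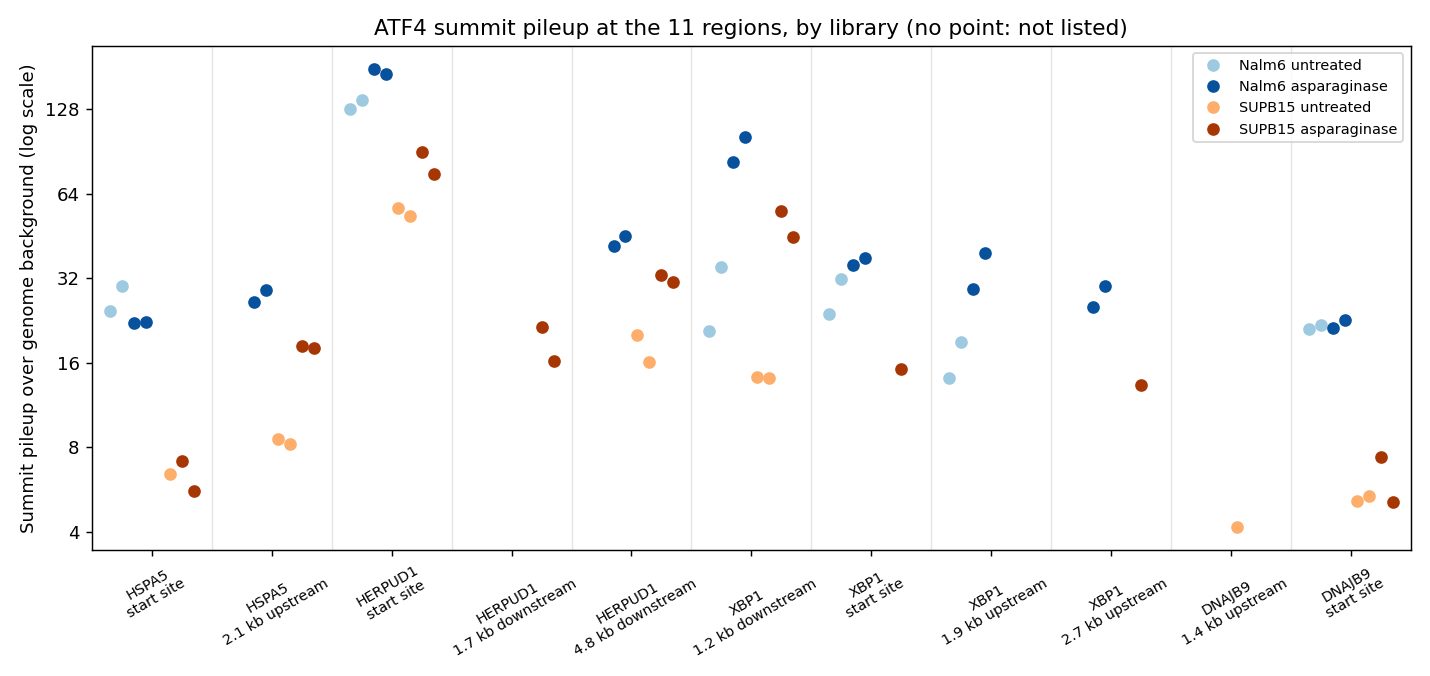
Summit pileup over genome background (log scale) of the strongest peak of each library at the 11 regions near HSPA5, HERPUD1, XBP1 and DNAJB9; each point is 1 library, colours are line and treatment, and a missing point means that the library did not list the region. The HERPUD1 start site reaches 128 to 178 in Nalm6, and the XBP1 region 1.2 kb downstream shows the widest gap between untreated and asparaginase points in both lines.

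The stronger HSPA5 peak lay at the start site in untreated Nalm6 and upstream of it in every other library. At the start site (chr9:128002951-128004482) the Nalm6 pileup over genome background was 24.6 and 30.1 without the drug and 22.2 and 22.3 with it, without overlap. In SUPB15 it was 6.41 for untreated replicate 2 and 7.16 and 5.60 with the drug, and untreated replicate 1, which would have needed 5.15, did not list it. Summits were 98 to 210 bp downstream of the start in Nalm6 and 244 to 456 bp downstream in SUPB15, and the untreated Nalm6 lists split off a weaker peak 644 and 360 bp upstream.

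In Nalm6 the HSPA5 start site fell relative to the median region, to 0.639 times (log2 change -0.65 ± 0.19, limma, adjusted p = 0.00459). Uncentred it was 0.824 times as high with asparaginase and did not pass (limma, adjusted p = 0.265). The call was also lost without asparaginase replicate 1 (limma, adjusted p = 0.0543) and without asparaginase replicate 2 (0.0997). A larger change was found at 96.9% of the tested regions, which puts the site near the low end. The deposited fold enrichment was 6.84 and 7.96 without and 5.26 and 5.34 with asparaginase, numbers 5688, 3799, 20201 and 21633, and the −log10 p was 38.3 and 48.8 against 21.6 and 23.1, with −log10 q of 34.5 and 44.9 against 18.6 and 20.04.

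A region 2.1 kb upstream of HSPA5 (chr9:128005558-128005968, summits 2051 to 2119 bp upstream) was listed in 6 libraries. Nalm6 with the drug had 26.3 and 29.2 times the genome background there. SUPB15 had 8.58 and 8.21 times without the drug and 18.4 and 18.1 times with it. Neither untreated Nalm6 library listed it, where a summit would have needed 22 fragments in each, or 7.40 and 7.89 times the genome background. The upstream region was thus above the start site in both Nalm6 asparaginase libraries, by 1.18 and 1.31 times, and in the SUPB15 libraries that listed both, by 1.28 times without and 2.57 and 3.23 times with asparaginase.

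In SUPB15 the upstream HSPA5 region was 2.14-fold higher with asparaginase on the uncentred scale, without overlap (limma, adjusted p = 0.00553). Relative to the median region the log2 change was 0.48 ± 0.36 and did not pass (limma, adjusted p = 0.285), with a 95% interval of -0.23 to 1.18. The fold enrichment was 6.37 and 7.04 in the Nalm6 drug libraries, numbers 12677 and 10907 of the lists, and 4.06, 3.93, 6.69 and 7.74 in the SUPB15 libraries, untreated ones first, numbers 3699, 3789, 4826 and 2412. The −log10 p was 29.6, 36.8, 12.6, 11.4, 39.5 and 41.2, and the −log10 q 26.3, 33.5, 8.94, 7.55, 35.8 and 37.3, in the same order. The local background of HSPA5 stayed near that of other regions. Between treatments it changed 1.13-fold at the start site in Nalm6 and 1.21-fold at the upstream region in SUPB15, against medians of 1.14 and 1.202 over all tested regions.

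DNAJB9 showed a broad peak at its start site in every library (chr7:108209508-108211271) and no second strong region. In Nalm6 its pileup over genome background was 21.2 and 21.9 without the drug and 21.3 and 22.7 with it. In SUPB15 the values were 5.15 and 5.39 without the drug and 7.40 and 5.09 with it. The groups overlapped in both lines. The log2 change relative to the median region was -0.33 ± 0.20 in Nalm6 (limma, adjusted p = 0.204) and -0.41 ± 0.24 in SUPB15 (limma, adjusted p = 0.177), with 95% intervals of -0.72 to 0.06 and -0.88 to 0.07, while the uncentred ratios were 1.03 and 1.16. The direction thus turned with the centring in both lines, and neither scale passed the test.

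The deposited values of DNAJB9 are given with the untreated libraries first. The fold enrichment was 5.67, 5.79, 5.81 and 5.79 for Nalm6 and 4.33, 4.49, 5.42 and 4.26 for SUPB15. The −log10 p was 28.7, 28.5, 22.9 and 25.2 for Nalm6 (−log10 q 25.2, 25.0, 19.7 and 22.1), numbers 5078, 6004, 10181 and 11018 of the lists. In Nalm6 the fold enrichment thus overlapped between the groups, while both −log10 p values with the drug were below both without it. The summits held 63 and 61 fragments without the drug and 47 and 53 with it, in libraries of lower genome background, and −log10 p depends on depth. For SUPB15 the −log10 p was 9.30, 9.66, 15.4 and 8.85 (−log10 q 5.76, 5.94, 12.3 and 5.77), numbers 4518, 3348, 10659 and 14702. Summits were scattered from 308 bp upstream to 251 bp downstream of the start in the strongest peak of each list, a wider scatter than the 118 to 152 bp of HERPUD1. In 3 SUPB15 lists a weaker peak was split off 507 to 955 bp downstream. Untreated replicate 1 of SUPB15 also listed a peak 1.4 kb upstream at 4.17 times the genome background (fold enrichment 3.54), which no other list held. THAP5 is the gene next to DNAJB9 on its upstream side in RefSeq (GRCh38.p14), only 106 bp away. A peak at the start site was assigned here by distance to DNAJB9 only, and whether it belongs to DNAJB9 or THAP5 was not tested.

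**Figure D3:**
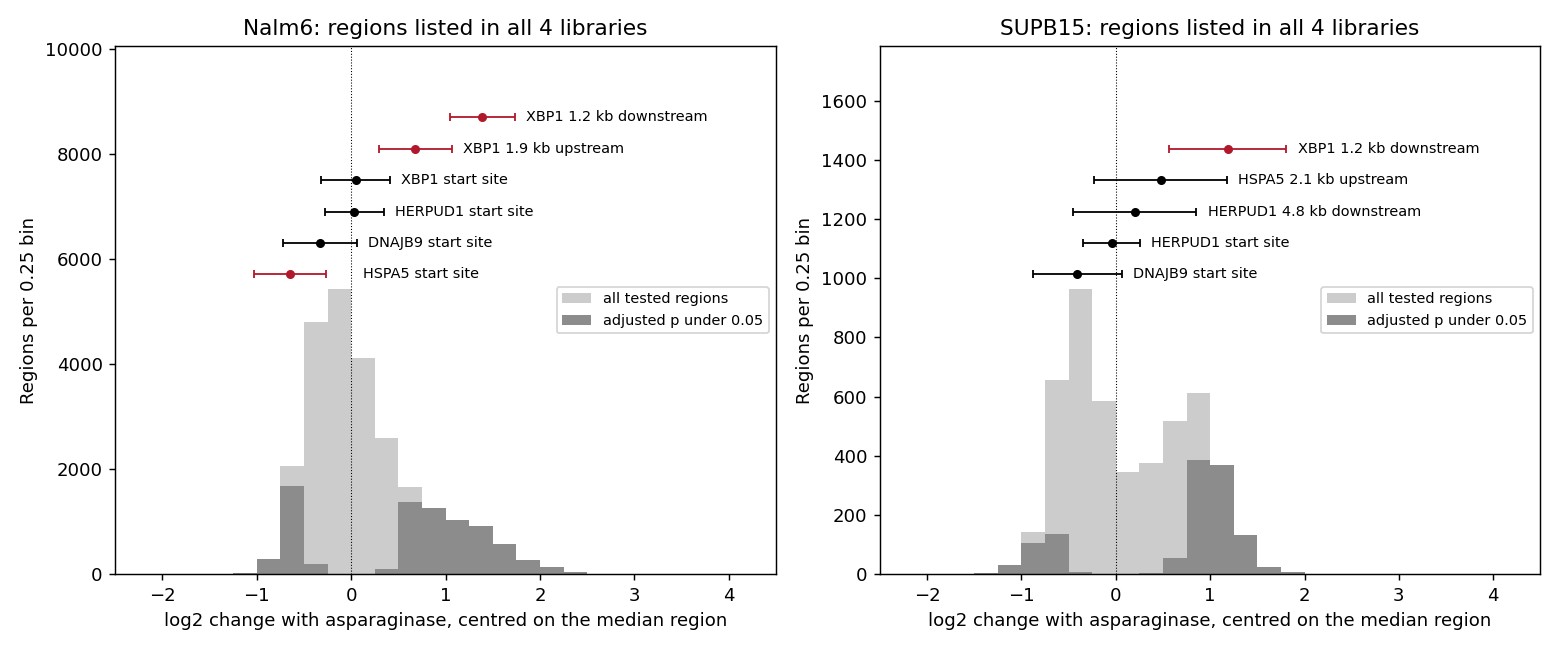
Distribution of the log2 change of summit pileup with asparaginase, centred on the median, over all regions listed in the 4 libraries of Nalm6 (left) and SUPB15 (right), in bins of 0.25; dark bars are regions with a limma adjusted p under 0.05, points are the regions near the 4 genes with 95% intervals, and red points passed the test. The XBP1 region 1.2 kb downstream lies on the right side in both lines (1.39 and 1.19), and the HSPA5 start site in Nalm6 lies on the left (-0.65).

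Counted over the 4 genes, 6 of 9 regions of Nalm6 were listed in all 4 libraries of the line (44.1% of all Nalm6 regions were) and 3 in both asparaginase libraries only (12.3% of all). The last 3 were the regions 2.1 kb upstream of HSPA5, 4.8 kb downstream of HERPUD1 and 2.7 kb upstream of XBP1. In SUPB15, 5 of 10 regions were listed in all 4 libraries (4.63% of all) and 1, the HERPUD1 region at 1.7 kb, in both asparaginase libraries only (16.7% of all). No region near the 4 genes was listed in both untreated libraries alone. All regions of the asparaginase-only class lay away from the start sites.

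Among the 6 tested regions of Nalm6, 2 were called higher, both at XBP1, beside 22.7% of all tested regions, and 1 was called lower, the HSPA5 start site, beside 8.64%. Of the 5 tested in SUPB15, 1 was called higher, again at XBP1, beside 20.5%, and 0 were called lower by limma, also at an unadjusted p under 0.05, beside 5.96%. The median log2 change of the tested regions was 0.039 in Nalm6 and 0.20 in SUPB15, where that of all regions is 0 by the centring. Without centring, both asparaginase pileups over genome background were above both untreated ones at 4 of 6 regions in Nalm6 and 4 of 5 in SUPB15. The shares of all regions tested were 60.4% and 68.1%. These shares are near the background and carry no statement on the genes as a set.

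The responses of the lines were compared where all 8 libraries listed a region, which held for HERPUD1 and DNAJB9 at the start site and for XBP1 1.2 kb downstream. SUPB15 minus Nalm6 was 0.049 ± 0.19 for HERPUD1, -0.074 ± 0.37 for XBP1 and 0.049 ± 0.33 for DNAJB9 on the log2 scale (limma interaction, adjusted p = 0.968, 0.974 and 0.980). The 95% intervals were -0.32 to 0.42, -0.80 to 0.65 and -0.59 to 0.69, so that differences within these ranges are compatible with the data. The smallest difference that 2 libraries per group could detect was not computed. None of the 3 was called, also at an unadjusted p under 0.05. Over all 3812 regions, 0.498% were called with a larger response in SUPB15 and 4.93% with a larger response in Nalm6. Without centring the XBP1 difference changed sign, to 0.053.

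**Figure D4:**
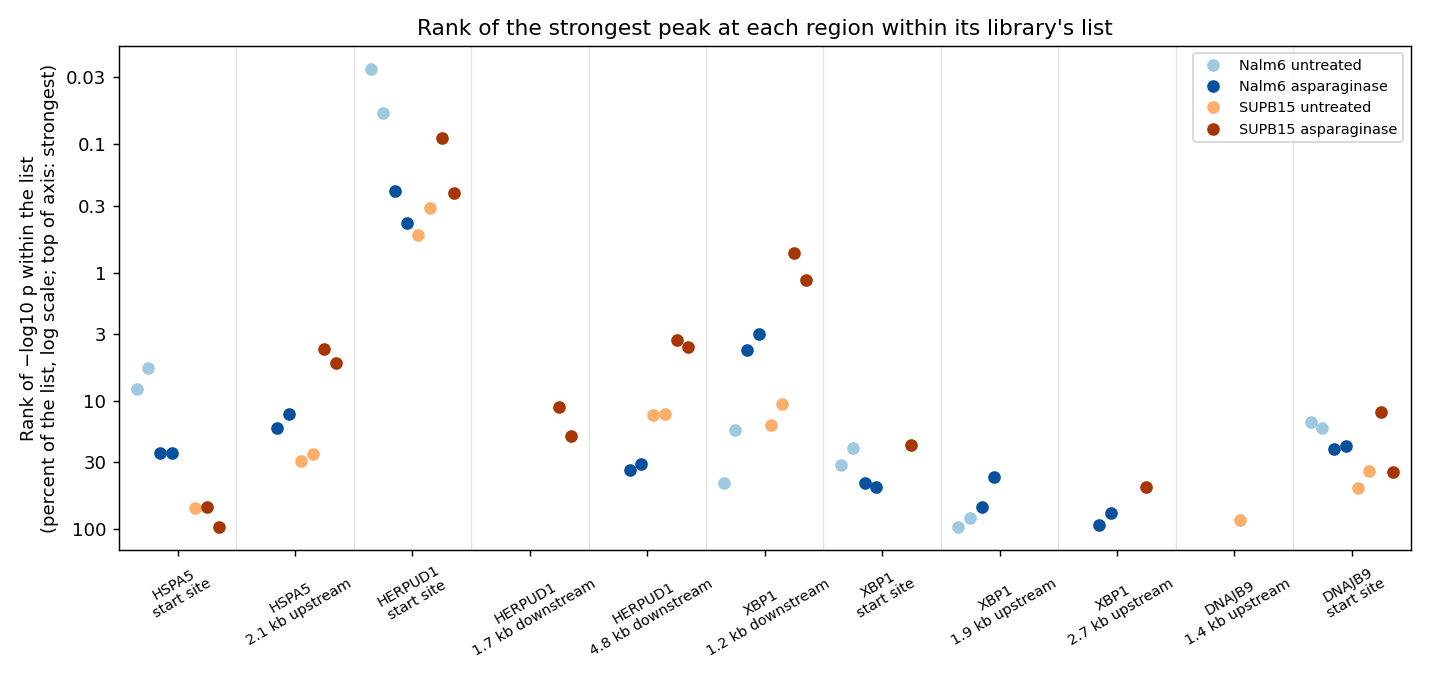
Rank by −log10 p of the strongest peak at each region within the list of its library, as a percent of the list length (log scale, strongest at the top); points are libraries, coloured by line and treatment. The HERPUD1 start site stands within the first 0.512% of each list, and the other regions spread from 0.702% downward.

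The order of the strongest peaks by pileup differed between the lines and with the drug. In untreated Nalm6 the start site of HERPUD1 was far above the rest, and the start sites of HSPA5, XBP1 and DNAJB9 and the downstream XBP1 region lay between 20.9 and 35.1. There the downstream XBP1 values spanned those of the other 3, and HSPA5 was above DNAJB9 without overlap. With asparaginase the downstream XBP1 region became second, at 83.3 and 101.7, and the DNAJB9 and HSPA5 start sites, at 21.3 to 22.7, did not separate from each other. In untreated SUPB15 HERPUD1 led with 57.1 and 53.3, followed by the HERPUD1 region at 4.8 kb (20.1 and 16.2), the downstream XBP1 region (14.2 and 14.1) and the upstream HSPA5 region (8.58 and 8.21), whose values did not overlap with each other. In SUPB15 the start sites of HSPA5 and DNAJB9 were low, at 5.09 to 7.40 under both conditions, with overlapping values.

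The local background differed among the genes as well. Its change with asparaginase in Nalm6 was 1.55-fold at the HERPUD1 start site and 1.76-fold at the XBP1 start site, against a median of 1.14 over tested regions, and 0.988-fold at DNAJB9. In SUPB15 it was 1.49-fold at the HERPUD1 start site, 1.92-fold at XBP1 1.2 kb downstream and 1.08-fold at DNAJB9, against a median of 1.202. A larger change was found at 15.6% of Nalm6 regions for HERPUD1 and at 10.5% for the XBP1 start site, and at 1.66% of SUPB15 regions for XBP1. The background thus rose at XBP1 and HERPUD1, and its relation to the rise of the summits varied. At the HERPUD1 start site in SUPB15 the background and the uncentred pileup over genome background both rose 1.49-fold. At the HERPUD1 and XBP1 start sites in Nalm6 the background rose more than the uncentred pileup, which rose 1.32-fold and 1.33-fold. At XBP1 1.2 kb downstream in Nalm6 it rose 1.76-fold, less than the 3.37-fold of the pileup. The part of the local background in the results was not tested.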

How the data were processed

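Peak lists from ATF4 immunoprecipitation of Nalm6 and SUPB15 cells, 1 per library, were grouped by title. Per the submitters' processing notes, BWA, MACS2 and DiffBind were used with hg19. The version and options of each, and any control library, are not in the sources used here. The lists deposited by the authors give each peak a fold enrichment (a ratio to local background), −log10 p and −log10 q; their display score, deposited too, was not used. These are the authors' values and describe and rank peaks within a list.

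For each peak, fold = (pileup + 1) / (background + 1) and a Poisson p were solved for the whole-number pileup (100% of peaks, tolerance 0.001 in −log10 p). The lowest background of a list stands for its depth. Peaks sharing at least 1 bp were merged, and log2 of pileup plus 1 over genome background was compared at regions listed in all libraries of a fit, centred on the median change (limma 3.58.1, trend, Benjamini-Hochberg over all regions, threshold 0.05; R 4.3.3). Local background changes, within-library ratios and pileups needed for listing were added after the values had been seen. Solving and fitting were tested on simulated data. The genes, gene lists and tests were chosen with earlier results of these data known. The named genes are the 4 given, and alternatives were distance, q threshold, summit matching, scaling, value, block and left-out libraries. A list of 26 further pathway genes was not placed, since no hg19 annotation was used here; promoters were matched by symbol (4 of 4).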

Additional observations from a re-analysis of the deposited data

How the results depend on the processing

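Peak counts within 5 kb, summed over the 8 lists, were 15 for HSPA5, 16 for HERPUD1, 20 for XBP1 and 12 for DNAJB9. Within 1 kb they were 9, 8 and 12 for HSPA5, HERPUD1 and XBP1, and with −log10 q of at least 10 they were 8, 12 and 5 for HSPA5, XBP1 and DNAJB9, by construction fewer. Over all Nalm6 regions 5717 were called higher and 2179 lower. Without centring these were 9762 and 100, with the deposited fold enrichment 1027 were lower, and with −log10 q of at least 10 in every library 3617 and 1106. In SUPB15, 976 and 284 became 2334 and 4 without centring, 55 and 514 with −log10 q of at least 10, and 220 and 744 with summits within 200 bp, while 547 were lower with the deposited fold enrichment. For the lines, 19 regions with a larger response in SUPB15 became 29 without centring and 46 with the deposited fold enrichment, and 188 with a larger response in Nalm6 became 70 with the latter. Apart from the centring, the cause was not tested. Leaving out single libraries gave 4118 to 5454 higher and 529 to 1540 lower regions in Nalm6, 0 to 1157 and 0 to 576 in SUPB15 (0 and 0 without untreated replicate 2), and 1 to 47 and 77 to 326 between the lines. A lone library is then assumed to vary like the others. With the replicate number as a block, 3604 were lower in Nalm6, 1634 higher and 707 lower in SUPB15, and 52 and 359 differed between the lines; all 14 results at the 4 genes kept their direction and side of the threshold. Deviations of same-numbered libraries correlated at 0.033 and 0.086 across regions, and the labels do not say that a number pairs libraries.

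Of 126 values at the 4 genes under alternatives, 89 kept direction and side of the threshold, 10 lost a call, 6 gained one in the same direction, and 21 changed sign, each from a log2 change that had not passed. After the change of sign 3 passed: in Nalm6 the start sites of HERPUD1 (limma, adjusted p = 0.0414) and XBP1 (0.0125) with the deposited fold enrichment, and in SUPB15 that of HERPUD1 without centring (0.000608). Without centring, DNAJB9 was 0.036 in Nalm6 and 0.21 in SUPB15, HERPUD1 at the start 0.58 in SUPB15, and the XBP1 difference between lines 0.053. With the deposited fold enrichment, also centred on the median change, the start sites of HERPUD1 and XBP1 were -0.37 and -0.53 in Nalm6. On that scale HERPUD1 at 4.8 kb was -0.20 in SUPB15 and the DNAJB9 difference between lines -0.15. With summits within 200 bp, the Nalm6 start sites of HERPUD1 and XBP1 were -0.025 and -0.013 and HERPUD1 at 4.8 kb in SUPB15 was -0.14, and with −log10 q of at least 10 the last was -0.27. Without single libraries, the Nalm6 start sites ranged from -0.034 to 0.11 for HERPUD1 and from -0.12 to 0.15 for XBP1, HERPUD1 in SUPB15 from -0.052 to 0.16, and the differences between lines from -0.024 to 0.14 for HERPUD1, -0.35 to 0.27 for XBP1 and -0.057 to 0.13 for DNAJB9.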

Other observations

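The changes of all SUPB15 regions had no single centre. On the log2 scale relative to the median, the bin from -0.50 to -0.25 held 965 of 4765 regions, the bin from 0 to 0.25 held 346, and the bin from 0.75 to 1.00 held 613. The DNAJB9 start site (-0.41) lay in the first of these bins and the XBP1 region 1.2 kb downstream (1.19) beyond the last, so that the median used for centring fell where few regions were.

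Of 26 further genes of the unfolded protein response, 23 had a promoter in the RefSeq table. In the 250 bases before their starts, 5 held the endoplasmic reticulum stress element (0.0806% of all 27305 promoters) and 2 its second form (0.0513%). The loose composite element of ATF4 and C/EBP factors (3.18%) was in 0, and TGACGTCA (1.77%) and TGACGTG (1.71%) were in 1 each. Among 23 promoters a count of 0 or 1 cannot be told apart from these last 3 shares. Their peaks were not analysed here.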
